A study of Homo sapiens with 4 samples.

Results

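H3K27ac-associated loops were examined at the transcript starts of 9 genes of the TGF-beta pathway: the ligands TGFB1 and TGFB2, the receptors TGFBR1 and TGFBR2, the signal transducer SMAD3, the inhibitory SMAD7, the corepressors SKI and SKIL, and the target gene ID1. They are 9 of the 19222 protein-coding genes annotated on chromosomes 1 to 22. A loop was assigned to a gene when a transcript start of that gene (GENCODE release 44 on hg19) lay in either of its 5 kb anchors. By this rule 31 of the 27289 loops of the WT list and 33 of the 25621 loops of the STAG2-KD list belonged to the 9 genes. No loop touched starts of more than 1 of them.

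TGF-beta ligands are secreted in a latent form and, once released, join a type I and a type II receptor kinase. The activated type I receptor phosphorylates SMAD2 and SMAD3, which enter the nucleus with SMAD4 and act on enhancers and promoters. SMAD7 blocks the receptors, and SKI and SKIL hold SMAD complexes in a repressed state, so that the pathway carries its own brakes. In melanoma the pathway is known for growth control, invasion and phenotype switching.

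In HiChIP, DNA ends that lie close in the nucleus are ligated and then pulled down with an antibody, in this study to H3K27ac, a mark of active promoters and enhancers. All samples were M14 cells, a human melanoma line with 1 doxycycline-inducible short hairpin RNA against the cohesin subunit STAG2. STAG2-KD cells received doxycycline for 5 days and WT cells, which carry the same hairpin, did not, so an effect of the drug and an effect of the knockdown cannot be told apart. The labels give 2 samples per group, and 1 loop list per group was analysed here. Without a replicate list no difference between WT and STAG2-KD could be tested, and all values below describe these 2 lists.

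The lists hold positions without read counts, so the depth behind a loop was unknown, and a loop missing from a list may lie just below the limit of the caller. The knockdown itself could not be checked from the lists, because loops do not measure the RNA that the hairpin targets. The lists also have no loops on chromosome X, where STAG2 lies. The paper reports the knockdown and a loss of STAG2 binding at many sites in M14 cells. Of 7 melanocyte marker genes, 6 had a loop at a start in WT and 5 in STAG2-KD; TYR had 0 in both and DCT had 3 and 0. Of the 4 marker genes each for fibroblasts, epithelia and leukocytes, 2 had a loop in at least 1 list, and a loop at a start does not measure expression.

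Of the 9 genes, 7 had a loop at a start in at least 1 list, whereas 44.5% of all protein-coding genes did. TGFBR1 and SKIL had 0 loops in both lists. SMAD3 and SMAD7 differed most between the lists, in opposite directions: SMAD3 held 5 loops in WT and 11 in STAG2-KD, and SMAD7 held 10 and 4. More loops in STAG2-KD were counted for 3 genes (TGFBR2, SMAD3 and ID1), fewer for 3 (TGFB2, SMAD7 and SKI) and as many for 1 (TGFB1). Among the 8563 protein-coding genes with a loop, 34.4% had more, 43.5% had fewer and 22.1% had as many. With so few members these proportions say nothing particular about the pathway.

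**Figure D1:**
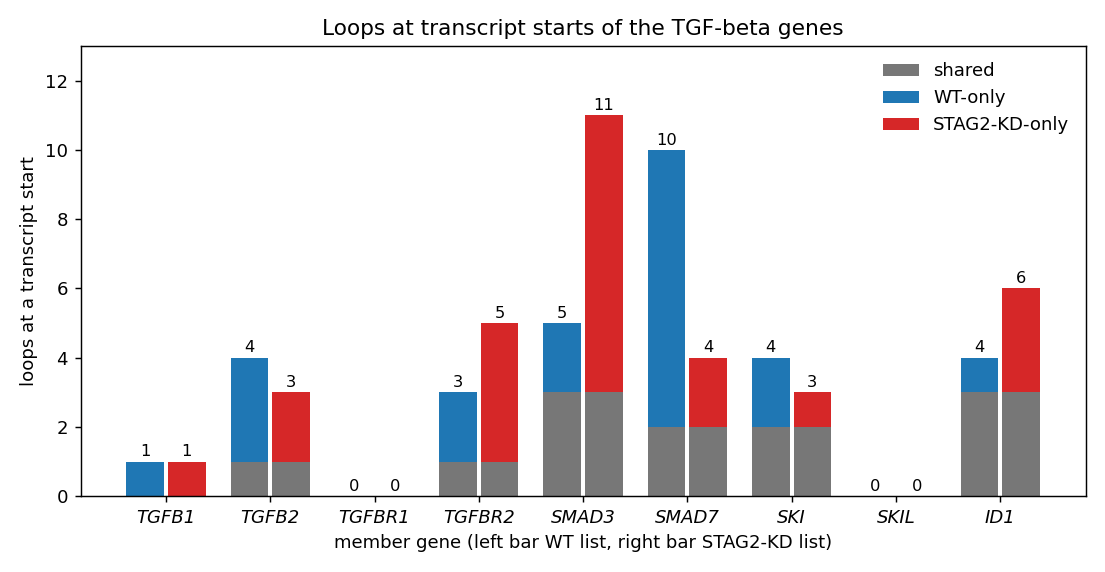
Number of loops at transcript starts of each gene, with the WT list in the left bar and the STAG2-KD list in the right bar. Grey marks loops found in both lists, blue WT-only and red STAG2-KD-only loops; the tallest bars are SMAD3 in STAG2-KD (11 loops) and SMAD7 in WT (10 loops).

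A loop counted as shared when the WT and STAG2-KD lists held it between identical anchor bins. The 9 genes had 52 distinct loops: 12 shared, 19 WT-only and 21 STAG2-KD-only. Shared loops made up 38.7% of those in WT (95% exact interval 21.8 to 57.8) and 36.4% of those in STAG2-KD (20.4 to 54.9). Among all loops with a protein-coding start in an anchor, the shared part was 41.2% in WT and 43.4% in STAG2-KD, values that lie inside those intervals. At least 1 shared loop was present at 6 of the 7 genes with loops, TGFB1 being the exception, beside 55.5% of all genes with a loop. These 7 genes had a median of 4 loops in each list, beside 2 over all genes with a loop. A gene with more loops has more chances of a shared one, so the 2 proportions are not like for like. Intervals cover counting error only, and loops of 1 gene are not independent of each other.

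SMAD3 and SMAD7 together held 20 of the 40 private loops (50%) and 25 of all 52 loops (48.1%), so their part of the private loops was about their part of all loops. SMAD7 held 8 of the 19 WT-only loops (42.1%) and SMAD3 held 8 of the 21 STAG2-KD-only loops (38.1%), while the other members held 9 (47.4%) and 11 (52.4%). Leaving out SMAD3 lowered the STAG2-KD-only loops to 13, and leaving out SMAD7 lowered the WT-only loops to 11. A difference as large as that of SMAD3, at least 6 more loops in STAG2-KD, was seen in 0.876% of genes with a loop. A difference as large as that of SMAD7, at least 6 fewer, was seen in 0.981%. Genes with a loop had a median of 2 loops in each list, with a 90th percentile of 6, so most could not differ by 6. These 2 genes were singled out after their values were seen, and genes with many annotated starts have more bins in which to gain or lose loops.

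**Figure D2:**
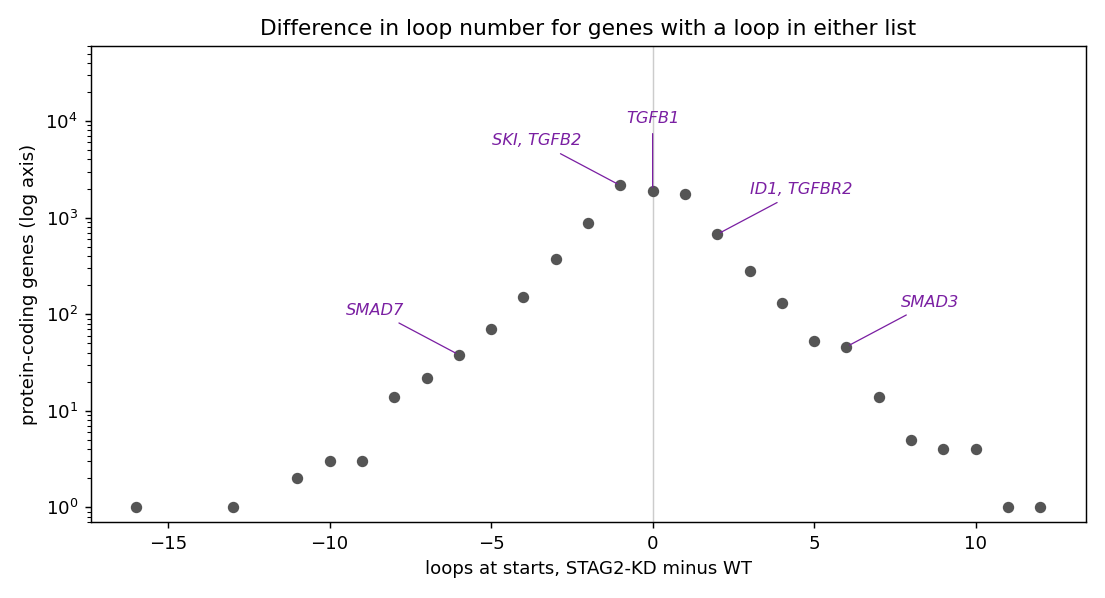
Protein-coding genes with a loop in either list, counted (vertical log axis) by the difference in loop number at their starts, STAG2-KD minus WT (horizontal axis). SMAD3 at 6 and SMAD7 at -6 lie on the outer slopes, and the other 5 members with loops lie between -1 and 2.

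The ligand TGFB1 lies on the minus strand of chromosome 19 from 41807492 to 41859827 (hg19; ENSG00000105329). Its main start falls in the bin from 41855001 to 41860000, which also holds a start of TMEM91, so a loop there cannot be assigned to either gene alone. The bin had 1 loop in each list, to different partners. The WT-only loop spanned 45 kb and ended at a bin with starts of BCKDHA, an enzyme subunit of branched-chain amino acid breakdown, and EXOSC5, a subunit of the RNA exosome. The STAG2-KD-only loop ran 85 kb the other way to the start of HNRNPUL1, which encodes an RNA-binding protein. The bin shared by TGFB1 and TMEM91 was thus joined to other promoters in both lists, and both partner bins carried loops in both lists.

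TGFB2, a ligand gene on chromosome 1 (218518678 to 218617961, plus strand), had 4 WT and 3 STAG2-KD loops. Its partners held no other promoter. The shared loop ran 95 kb from the main start to the last part of the gene itself. The 3 WT-only loops stayed within 175 kb: 25 kb into an intron of TGFB2, and 150 and 175 kb into the stretch beyond the gene. Both STAG2-KD-only loops were far longer, at 1225 and 1365 kb, and they were the only loops over 500 kb among the 52. Over 1 Mb, the STAG2-KD list held 87 of 14385 loops with a protein-coding start and the WT list 75 of 15175.

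The longer of these loops ended in the bin chr1:219880001-219885000, in an intron of SLC30A10, which encodes a manganese exporter. That bin had 1 loop in WT and 5 in STAG2-KD, and the end of the 1225 kb loop, in a stretch without a protein-coding gene, had 3 and 2. Both ends were therefore loop anchors in WT as well, but not with TGFB2. The intronic bin contains 2 matches to TGACTCA, the site bound by AP-1 factors, with 254 bases between them; 60.5% of all anchors of the lists hold at least 1. The stretch with both matches is shown because it is the most distant partner of any member, with the matches in capitals (chr1:219884182-219884469, plus strand).
TGFB2 distal partner: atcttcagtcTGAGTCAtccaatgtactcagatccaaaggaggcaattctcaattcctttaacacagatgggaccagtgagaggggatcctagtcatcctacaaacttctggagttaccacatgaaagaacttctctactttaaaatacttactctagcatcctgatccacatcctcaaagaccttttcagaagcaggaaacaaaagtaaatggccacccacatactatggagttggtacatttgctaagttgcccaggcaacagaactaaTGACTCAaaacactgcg

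The choice of start mattered for TGFB2. The bin of its main start had 2 WT and 3 STAG2-KD loops, so the order turned when only that bin was counted. The other 2 WT loops, and 0 STAG2-KD loops, lay in the adjoining bin from 218520001 to 218525000, at the start of a transcript without an annotated coding sequence. Among bins with a protein-coding start and a WT loop, 27.4% had 0 loops in STAG2-KD.

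TGFBR1, the type I receptor gene on chromosome 9 from 101866320 to 101916474, had 0 loops at its starts in both lists. The anchor nearest to any of its starts was the bin from 101895001 to 101900000 inside the gene, 3.81 kb past an internal start, with 2 WT loops and 1 STAG2-KD loop. The anchor nearest to the first start lay 8.68 kb past it, in the bin from 101875001 to 101880000. This second bin had 6 loops in WT and 1 in STAG2-KD, none of them shared. The WT-only loops reached 20 kb further into TGFBR1 and, on the other side, 75 to 245 kb to a start and 2 further bins of COL15A1, a collagen gene, and to 2 bins without a protein-coding gene. The STAG2-KD-only loop ran 265 kb to the start of GALNT12, a glycosyltransferase gene. Within 500 kb of the TGFBR1 start there were 17 loops in WT and 10 in STAG2-KD, 3 of them shared.

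TGFBR2, the type II receptor gene on chromosome 3 (30648093 to 30735634, plus strand), had 3 WT and 5 STAG2-KD loops, 1 of them shared. The shared loop ran 155 kb upstream to a bin without a protein-coding gene. In WT the other loops ran 25 kb upstream and 85 kb to exons at the end of the gene. In STAG2-KD they ran 260 kb upstream and 20, 50 and 35 kb into introns of TGFBR2, the 35 kb loop from a second start without an annotated coding sequence. No private loop of TGFBR2 had a loop within 2 bins of both its anchors in the other list. At the main start alone the counts were 3 and 4.

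The anchor at the TGFBR2 start holds 2 matches to TGACTCA. The second ends at the annotated first base, and the first ends 720 bases before it. At least 1 match was held by 5 of the 15 member start anchors (33.3%) and by 60.5% of all anchors. In the stretch below (chr3:30647943-30648102, plus strand), shown because all but 1 of the loops of TGFBR2 meet in this anchor, the capitals mark the second match and the last 10 bases are transcribed.
TGFBR2 start: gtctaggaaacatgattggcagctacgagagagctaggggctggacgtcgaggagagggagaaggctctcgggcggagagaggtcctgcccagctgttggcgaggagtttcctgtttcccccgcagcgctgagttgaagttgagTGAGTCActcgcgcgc

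SMAD3, the transducer of the TGF-beta signal, spans 67356101 to 67487511 of chromosome 15 (plus strand; ENSG00000166949), and its 18 annotated starts fall in 11 bins. Its 13 distinct loops comprised 3 that were shared, 2 private to WT and 8 private to STAG2-KD. The difference lay in 1 bin. The internal start at 67418054, the first base of a shorter coding transcript, lies in the bin from 67415001 to 67420000, which had 1 loop in WT and 7 in STAG2-KD. All other SMAD3 starts together had 4 and 4. At the bin of the 5′-most start the order was the reverse, with 2 WT loops and 1 STAG2-KD loop.

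The loop that the internal start had in both lists ran 20 kb back to an intronic bin from 67395001 to 67400000. The 6 STAG2-KD-only loops fanned out in both directions. Upstream they reached 40 kb within the gene, 80 kb to a bin upstream of it, and 175 kb to a bin at 67240001 that was joined to another SMAD3 start in both lists. Downstream they reached 20 and 35 kb within the gene and 75 kb to exons of AAGAB, the next gene, which encodes an adaptor-binding protein. Of the 6 partner bins, those at 67335001 and 67490001 had 0 loops in WT and the other 4 were WT anchors too. A gain of at least 6 loops was seen in 0.421% of the 9511 bins with a protein-coding start and a loop. Bins with fewer than 6 STAG2-KD loops could not show such a gain. The internal start bin was also picked for having the most STAG2-KD loops of the SMAD3 start bins.

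The intronic bin from 67395001 to 67400000 was the most connected partner of any member. It anchored 11 WT loops and 14 STAG2-KD loops, 7 of them in both lists, and 4 distinct ones ended at SMAD3 starts. The longest of these 4, at 75 kb, was WT-only and came from a start near the end of the gene. From the main start region it was reached by a 40 kb WT-only loop and by a 35 kb STAG2-KD-only loop whose left anchors were adjacent bins, so these count as different loops only by 1 bin. A further STAG2-KD-only loop of 335 kb joined a SMAD3 start to an intron of SMAD6, the neighbouring inhibitory SMAD gene. AAGAB, the next gene, also had more loops at its starts in STAG2-KD, with 3 in WT and 10 in STAG2-KD. Loops within 500 kb of SMAD3 were also more numerous in STAG2-KD, with 31 and 49 in the lists and 18 of them shared. The part of this wider difference in the SMAD3 counts was not tested.

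Both ends of the shared SMAD3 loop are shown, with matches to the AP-1 site in capitals. The first stretch is the 150 bases before the internal start (chr15:67417904-67418053, plus strand), in which a match ends 24 bases before the start. A match in the 250 bases before a protein-coding transcript start was found at 3.19% of starts. Over whole 5 kb anchors, member start anchors held a match less often (33.3%) than all anchors (60.5%). The second stretch holds 1 of the 2 matches in the intronic bin (chr15:67398707-67398806, plus strand).
SMAD3 internal start: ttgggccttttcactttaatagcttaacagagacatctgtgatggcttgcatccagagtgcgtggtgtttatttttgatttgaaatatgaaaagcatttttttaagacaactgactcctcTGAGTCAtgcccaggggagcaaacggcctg
SMAD3 intronic hub: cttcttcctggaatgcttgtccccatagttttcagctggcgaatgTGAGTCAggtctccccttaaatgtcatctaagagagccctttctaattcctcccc

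SMAD7, the inhibitory SMAD that turns the receptors off and is itself induced by TGF-beta, lies on the minus strand of chromosome 18 from 46446223 to 46477335 (ENSG00000101665). Its 12 distinct loops comprised 2 that were shared, 8 private to WT and 2 private to STAG2-KD. The bin of its main start, from 46475001 to 46480000, had 6 loops in WT and 1 in STAG2-KD. The STAG2-KD loop was shared and was the shortest, 20 kb to the bin from 46455001 to 46460000 within SMAD7. A loss of at least 5 loops was seen in 0.946% of bins with a protein-coding start and a loop. Bins with fewer than 5 WT loops could not show such a loss. The main bin was also picked for having the most WT loops of the SMAD7 start bins. Counting protein-coding transcripts only, or the 5′-most start only, also gave 6 and 1. Both choices leave this same bin as the only one with loops, so they add no separate support.

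Partners of SMAD7 lay in introns of its neighbours. Toward CTIF, which encodes a translation factor, there were 6 loops in WT and 2 in STAG2-KD, spanning 95 to 225 kb. None of them was shared, but both STAG2-KD loops had a WT loop within 2 bins at both anchors. Toward DYM, which encodes a Golgi protein, the lists held 3 and 1, the shared one at 255 kb. Of the WT-only loops of SMAD7, those of 95, 225 and 245 kb had a STAG2-KD loop within 2 bins at both anchors. The loop numbers of the partner bins differed in both directions. The CTIF bin from 46360001 to 46365000 had 4 loops in WT and 6 in STAG2-KD, although both of its loops with SMAD7 were WT-only, and the CTIF bin from 46265001 to 46270000 had 5 and 2. The CTIF bin from 46250001 to 46255000 was joined over 225 kb to the main start in WT and over 215 kb to an internal start 2 bins away in STAG2-KD. Within 500 kb of the SMAD7 start there were 15 and 14 loops, 4 of them shared.

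**Figure D3:**
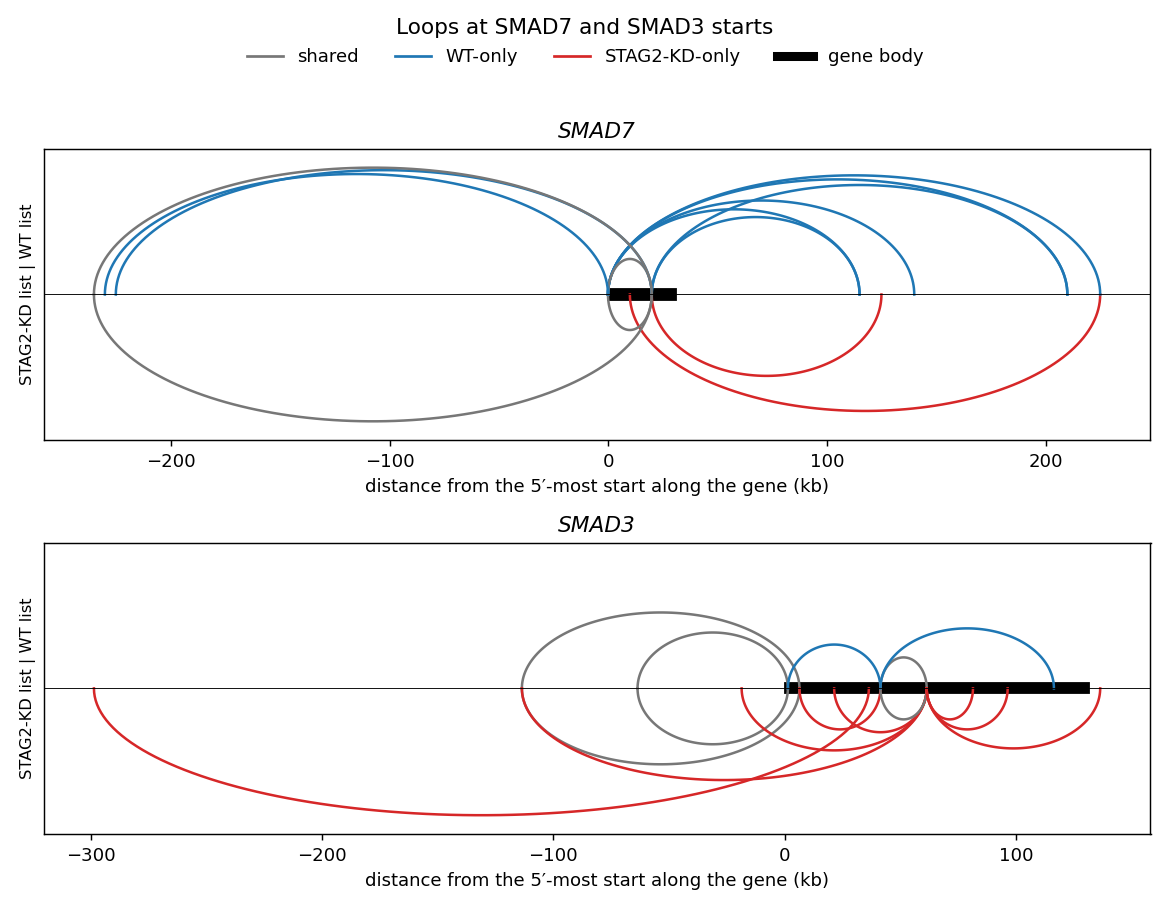
Loops at SMAD7 and SMAD3 starts by distance along the gene from its 5′-most start (kb); arcs above the line are in the WT list and arcs below it in the STAG2-KD list, shared loops (grey) are drawn in both, and arc height follows the square root of the distance. SMAD7 has 8 WT-only arcs on both sides, and 6 STAG2-KD-only arcs of SMAD3 meet at the internal start.

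The main SMAD7 anchor was the only 1 of the 15 member start anchors with a match to GTCTAGAC, the palindromic SMAD site; 2.85% of all anchors hold 1. Of the 44 partner anchors 5 had a match, among them the DYM bins of the 245 and 255 kb loops. Those loops ran to the internal start bin from 46455001 to 46460000, which had no match. The DYM bin joined to the main start, over 230 kb, had none either. The start match lies 1253 bases before the main start. A match to TCACGTG, an E-box of the kind bound by the melanocyte factor MITF, lies 3 bases from it, and 19.3% of all anchors hold such an E-box. The stretch is shown on the minus strand, the strand of the gene (chr18:46478548-46478647). It is followed by the E-box, in both orientations overlapping, in the CTIF bin with 4 WT and 6 STAG2-KD loops (chr18:46364713-46364812, plus strand); capitals mark the matches.
SMAD7 start anchor: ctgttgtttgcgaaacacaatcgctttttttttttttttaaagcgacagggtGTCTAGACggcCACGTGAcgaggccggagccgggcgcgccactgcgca
SMAD7 partner in CTIF: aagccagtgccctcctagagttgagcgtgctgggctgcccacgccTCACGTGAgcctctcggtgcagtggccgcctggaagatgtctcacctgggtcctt

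SKI, a corepressor that binds SMAD complexes, lies on chromosome 1 from 2158827 to 2241652 and had 4 WT and 3 STAG2-KD loops, 2 of them shared. All of them met in the bin from 2160001 to 2165000, which begins 243 bases past the coding start at 2159758 and qualifies through an internal start at 2163918 that has no annotated coding sequence. The bin of the coding start itself had 0 loops in both lists. The shared loops ran 25 kb each way, to an intron of SKI and to a start of FAAP20, a gene of the Fanconi anaemia DNA repair pathway. The WT-only loops ran 70 kb within SKI and 160 kb to the starts of MORN1 and of RER1, which encodes a Golgi retention receptor, and the STAG2-KD-only loop ran 40 kb to FAAP20 exons.

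SKIL, the related corepressor on chromosome 3 from 170075130 to 170114623, had 0 loops, which rests on a bin edge. In WT the bin that ends 130 bases before its first start carried 2 loops, of 385 and 410 kb, to bins without a protein-coding gene. In STAG2-KD that bin had 0 loops, and the nearest anchor was 49.9 kb from the first start and 25.9 kb from an internal start. Within 500 kb of the start, 29 and 13 loops were found, with 8 of them shared. The same window held 13 WT and 11 STAG2-KD loops for TGFB1, 8 and 4 for TGFB2, and 9 and 7 for TGFBR2. For SKI it held 19 and 15, and for ID1 23 and 27. No background over other genes is given for these windows.

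ID1, which encodes an inhibitor of basic helix-loop-helix factors and is a target of TGF-beta family signals, spans 30193086 to 30194318 of chromosome 20 (plus strand). Its single start bin had 4 WT and 6 STAG2-KD loops, and 3 of them were shared, the most of any member together with SMAD3. The shared loops ran 120 kb to the start of BCL2L1, which encodes the survival protein BCL-XL, and 90 and 30 kb to a start and an intron of HM13, a signal peptide peptidase gene. The WT-only loop, of 135 kb, ended at the start of TPX2, a spindle assembly gene. The STAG2-KD-only loops ran 60 and 45 kb to further starts of HM13 and 60 kb to exons of BCL2L1. The HM13 bin at 45 kb had 0 WT and 4 STAG2-KD loops. HM13 and BCL2L1 were thus partners of ID1 in both lists and TPX2 in WT alone.

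**Figure D4:**
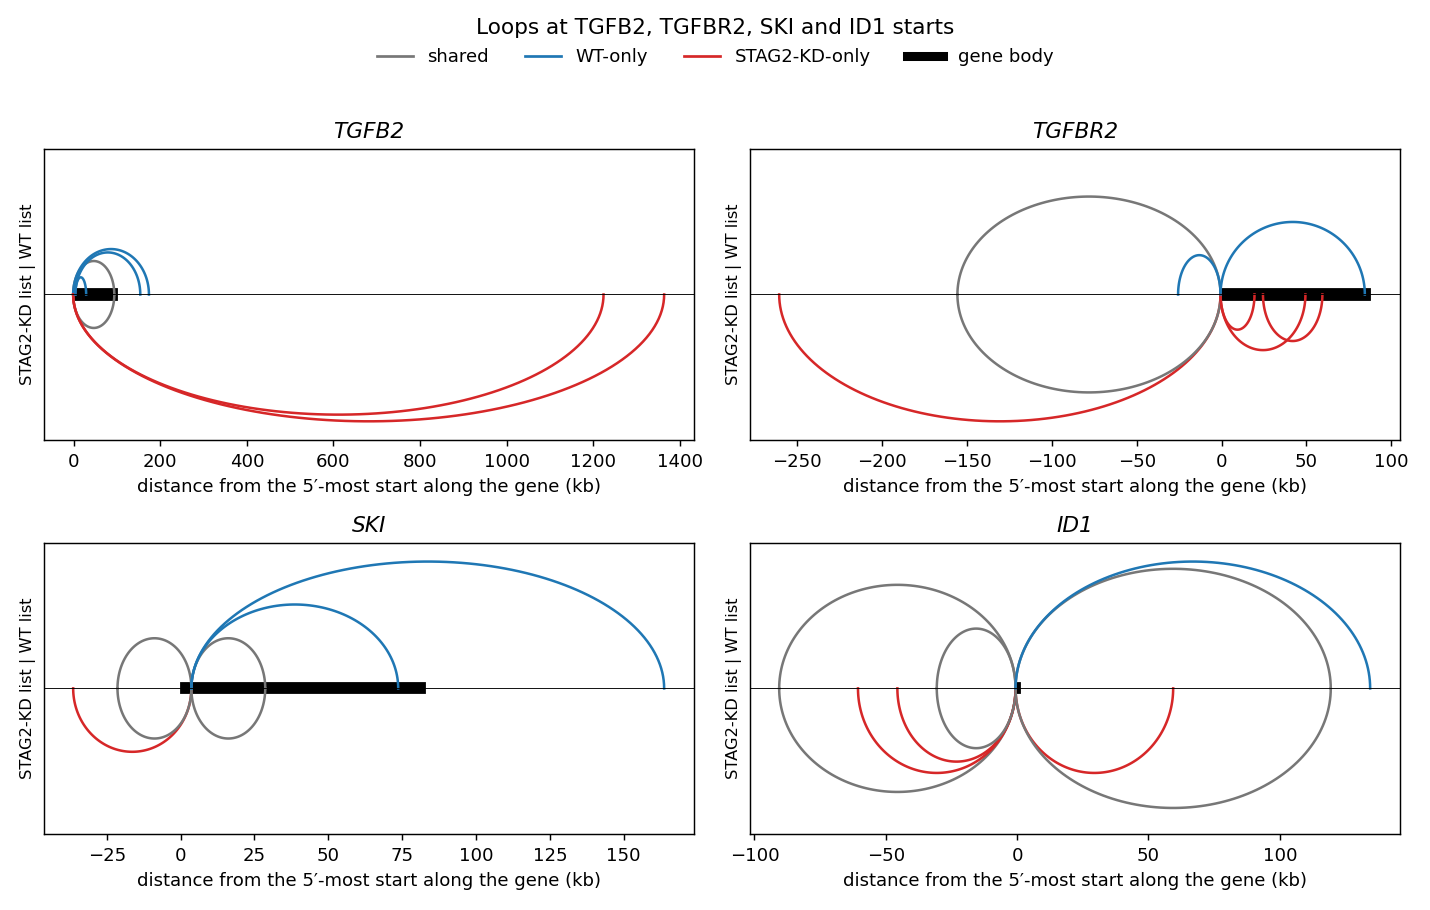
Loops at TGFB2, TGFBR2, SKI and ID1 starts, drawn as for SMAD7 and SMAD3: distance along the gene from its 5′-most start (kb), WT list above and STAG2-KD list below the line. The 2 STAG2-KD-only arcs of TGFB2 extend 1225 and 1365 kb, and ID1 keeps 3 shared arcs.

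Partners of the 52 loops were mostly not promoters. A protein-coding start lay at the partner of 10 loops (19.2%, interval 9.63 to 32.5), an exon without a start in 6, introns only in 26 and no protein-coding gene in 10. Among all loops with a protein-coding start, 32.8% had such a start at both anchors, with each loop counted once. Seen from each start anchor, as the members' partners were, a loop with starts at both anchors would count at both. The share over all loops would then be higher, so 19.2% and 32.8% are not like measures. With only the 5′-most start of each member counted, the members' share was 29.6%, over 1.5 times the value from all their starts. ID1, TGFB1 and SKI accounted for 9 of the 10, and the remaining one joined 2 starts of SMAD7. The partner lay inside the gene for 16 loops, upstream for 18 and downstream for 18. A start of another protein-coding gene lay between the anchors of 24 loops and of none of the other 28.

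Most private loops used a partner that was an anchor in the other list as well. This was so for 15 of the 19 loops private to WT and 16 of the 21 private to STAG2-KD. Over all private loops with a protein-coding start, counted once per start anchor, it was so for 62.8% in WT and 63.4% in STAG2-KD. A loop within 2 bins at both anchors was found in the other list for 4 of the members' loops private to WT and 3 of those private to STAG2-KD. Most of these belonged to SMAD7. The remaining 15 and 18 private loops had none. Of all private loops with a protein-coding start, 81.6% in WT and 79.2% in STAG2-KD had none either, so the members' counts are near the background.

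Loop distances are described for the 2 lists, and no difference was tested. The intervals below treat loops as independent, although shared loops are in both lists and loops cluster by gene. The median was 95 kb in WT (95% interval of the median 65 to 150) and 65 kb in STAG2-KD (40 to 105). WT-only loops had a median of 135 kb and a range of 25 to 245 kb. STAG2-KD-only loops had a median of 60 kb and a range of 20 to 1365 kb, with 8 of 21 under 50 kb. Shared loops had a median of 77.5 kb. Among all loops with a protein-coding start the WT-only and STAG2-KD-only medians were both 100 kb. The WT-only loops of SMAD7 ran from 95 to 245 kb, and most STAG2-KD-only loops of SMAD3 were 80 kb or shorter.

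**Figure D5:**
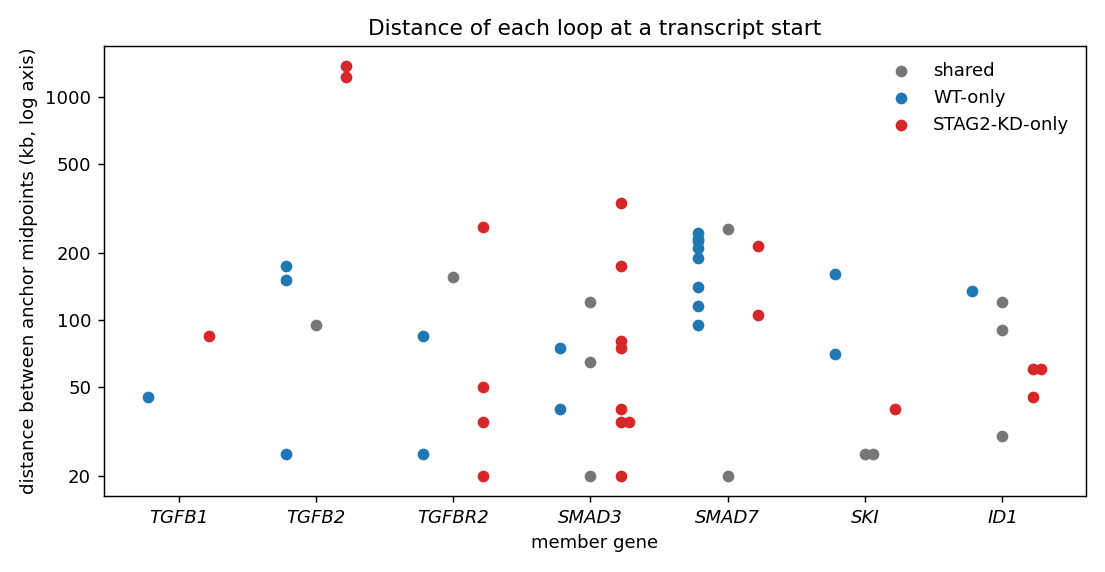
Distance between anchor midpoints (kb, log axis) of each loop at a member start, by gene and by class. WT-only loops span 25 to 245 kb, and STAG2-KD-only loops span 20 to 1365 kb, with TGFB2 alone above 1 Mb.

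Other genes of the pathway were counted from a list of 51 (ligands and latency, receptors and co-receptors, SMADs and cofactors, targets), of which 35 had a loop. More loops in STAG2-KD were found for 14 and fewer for 15, which is 40% and 42.9% of the 35, close to the 34.4% and 43.5% of all genes with a loop, and the median difference was 0. Ligands and latency genes had more for 3 and fewer for 3 of 6 genes with a loop, with 20 WT and 27 STAG2-KD loops in sum. Receptors and co-receptors had more for 4 and fewer for 2 of 7, with 33 in each list. SMADs and cofactors had more for 3 and fewer for 7 of 12, with 61 and 37. Targets had more for 4 and fewer for 3 of 10, with 38 and 34. LDLRAD4, which keeps SMADs from the receptor, held the most loops among the SMADs and cofactors, with 27 WT and 11 STAG2-KD loops, 6 of them shared. Most of the gap between 61 and 37 came from this gene alone.

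SNAI2, a transcription factor of the mesenchymal programme, had 16 and 8 loops, 3 of them shared. FURIN, the protease that cleaves the TGF-beta precursor, differed the other way with 1 and 7. That gap is nearly as large as the one between 20 and 27 over all ligands and latency genes. BAMBI, a pseudoreceptor that dampens the signal, had 11 in each list and shared 10 of them. The pattern of SMAD3 (3 shared, 2 WT-only and 8 STAG2-KD-only loops) was matched exactly by 5 other genes over the 2 lists, among them BBS10 and CSNK2B.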

How the data were processed

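H3K27ac HiChIP of M14 cells was grouped into WT and STAG2-KD by sample titles. Per the labels and the study's methods, the authors digested chromatin with MboI, aligned reads to hg19 with HiC-Pro, called peaks with hichip-peaks and loops with FitHiChIP; versions are not given in the sources used here, nor whether a list merges replicates. The deposited lists have 3 columns (chromosome, start of the left anchor, end of the right anchor) and no score, count or header.

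Anchors were read as 5 kb bins; positions are printed counted from 1. Carriage returns were removed. No loop ended past its chromosome in GRCh37, and 1 loop, at no member, was off the 5 kb grid. Distance is between anchor midpoints. Starts came from GENCODE release 44 lifted to GRCh37, all transcripts counted. Shares have exact Clopper-Pearson intervals at 95%. The SMAD palindrome (GTCTAGAC), the AP-1 site (TGACTCA), the MITF E-box (TCACGTG) and a CTCF core were matched exactly on both strands of GRCh37; the last was found in 6 of 15 start anchors, 11 of 44 partner anchors and 17.8% of all anchors. The AP-1 site was found in 5 and 29, the E-box in 4 and 9, and the palindrome in 1 and 5.

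Matching was tested on simulated data. Members, gene lists and alternatives were chosen with earlier results of these data known. Named genes are the members, genes at partner bins, the 3 pathway genes with the most loops and the 3 with the largest difference, and up to 3 genes patterned like the member with the most loops; the third of these has no symbol. Python 3.11.15, scipy 1.17.1, pysam 0.24.0 and matplotlib 3.10.9 were used.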

Additional observations from a re-analysis of the deposited data

How the results depend on the processing

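No paired analysis was possible because there was 1 loop list for WT and 1 for STAG2-KD, and leaving out a replicate or applying a stricter score limit was not possible for lists of positions. Of 195 values under alternatives, 139 stayed within 1.5 times the reported count or within its interval, 51 moved and 5 turned direction. Some of the 139 could not change, so the tally overstates stability. Examples are leaving out TGFBR1 or SKIL, which had 0 loops, and restricting the starts of ID1, which share 1 bin. By construction, fewer starts give fewer loops. Starts of protein-coding transcripts alone left 20 WT and 11 WT-only loops, medians of 2 WT and 1 STAG2-KD loops per gene, and 1 gene with fewer loops in STAG2-KD; the sum over genes, STAG2-KD minus WT, was 6 and that of TGFB2 turned to 1. The 5′-most start alone left 18 WT and 16 STAG2-KD loops, 7 shared, 11 WT-only and 9 STAG2-KD-only, with medians of 2 and 1. Under it the sum turned to -2, SMAD3 to -1 and TGFB2 to 1. Starts within 5 kb of the anchor gave 50 WT and 50 STAG2-KD loops, a difference of 0, with 19 shared, 31 WT-only and 5 genes with fewer loops in STAG2-KD.

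The summed difference, 2 loops as reported, rests on single genes. It was 0 without TGFBR2, 0 without ID1, 8 without SMAD7 and -4 without SMAD3. Leaving out SMAD3 left 13 STAG2-KD-only loops and leaving out SMAD7 left 11 WT-only loops. The difference at SMAD3 was 7 with starts of protein-coding transcripts only and 10 with starts within 5 kb of the anchor. It was -1 with the 5′-most start only. The difference at SMAD7 stayed between -6 and -5 under the alternative choices of start. Protein-coding transcripts only and the 5′-most start only both count loops of its main bin alone, so their agreement was fixed in advance.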
